A study of Rattus norvegicus with 40 samples.

Results

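Microglia are macrophages that live in the brain and spinal cord, where they survey the tissue and clear debris. Genes that rise together when these cells meet injury, myelin debris or amyloid are known as the disease-associated or activated program, and several of them handle lipid. The 6 genes described here were chosen by their Ensembl rat gene IDs from that program: Apoe (ENSRNOG00000018454), Lpl (ENSRNOG00000012181), Gpnmb (ENSRNOG00000008816), Lgals3 (ENSRNOG00000010645), Spp1 (ENSRNOG00000043451) and Igf1 (ENSRNOG00000004517). All 6 were among the 32883 IDs of the count table, all 6 passed the filter on low counts in every fit, and they were picked by ID and not by a threshold on these values, from a list drawn up with earlier results of the series known. The names come with the list of IDs, since the table itself holds IDs only.

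The libraries came from 8-week-old Sprague Dawley offspring whose dams breathed intermittent normoxia (21% oxygen in both phases) or intermittent hypoxia (10.5% alternating with 21% oxygen) from gestational day 10 to day 21, with 15 cycles in each of 8 hours daily. Pups were born and raised in ordinary housing. Microglia were taken from the medulla, the lowest part of the brainstem, and from cervical segments C3 to C6 of the spinal cord with magnetic beads against CD11b, a surface protein that other myeloid cells also carry. The 40 libraries formed 8 groups of 5, namely male normoxia, male hypoxia, female normoxia and female hypoxia in each region. Both regions came from the same 20 animals, 1 male and 1 female of each litter, and all groups share strain, age and housing after birth. Totals ran from 6061346 to 24039411 counts per library, with the lowest in female hypoxia medulla replicate 3, which also detected the fewest IDs of the series (13379). Markers of microglia and of other cell types could not be matched to IDs, so their levels were not analysed here, and a change in the mix of cells and a change of RNA within cells cannot be told apart in these bulk libraries.

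The largest difference among the 6 genes was between the regions. Lpl was 4.99-fold to 6.61-fold lower in the cord than in the medulla in 3 of 4 comparisons, and Igf1 was 2.02-fold and 1.86-fold lower in normoxia and hypoxia males. Of all genes 5.87% to 26.2% were called in the 4 comparisons. With 1 library left out, Lpl kept its call in 5, 6 and 9 of 10 fits (male normoxia, female normoxia, female hypoxia). Igf1 kept its call in 7 and 4 of 10 (normoxia and hypoxia males). With the animal as a block, Lpl was not called in male normoxia. Gestational hypoxia went with 1 called change, a higher Apoe in the female cord (1.55-fold as fitted, less by the plain group means). In that comparison 32.8% of all genes were called, and the Apoe call was lost in 7 of 10 omissions of a library and with a replicate block. Spp1 set 3 of 20 rats apart, which had almost none of it in either region and belonged to 3 different groups. Among the other 17 no agreement between the regions was shown (r = 0.31, permutation p = 0.326). Gpnmb and Lgals3 were called in no comparison.

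**Figure D1:**
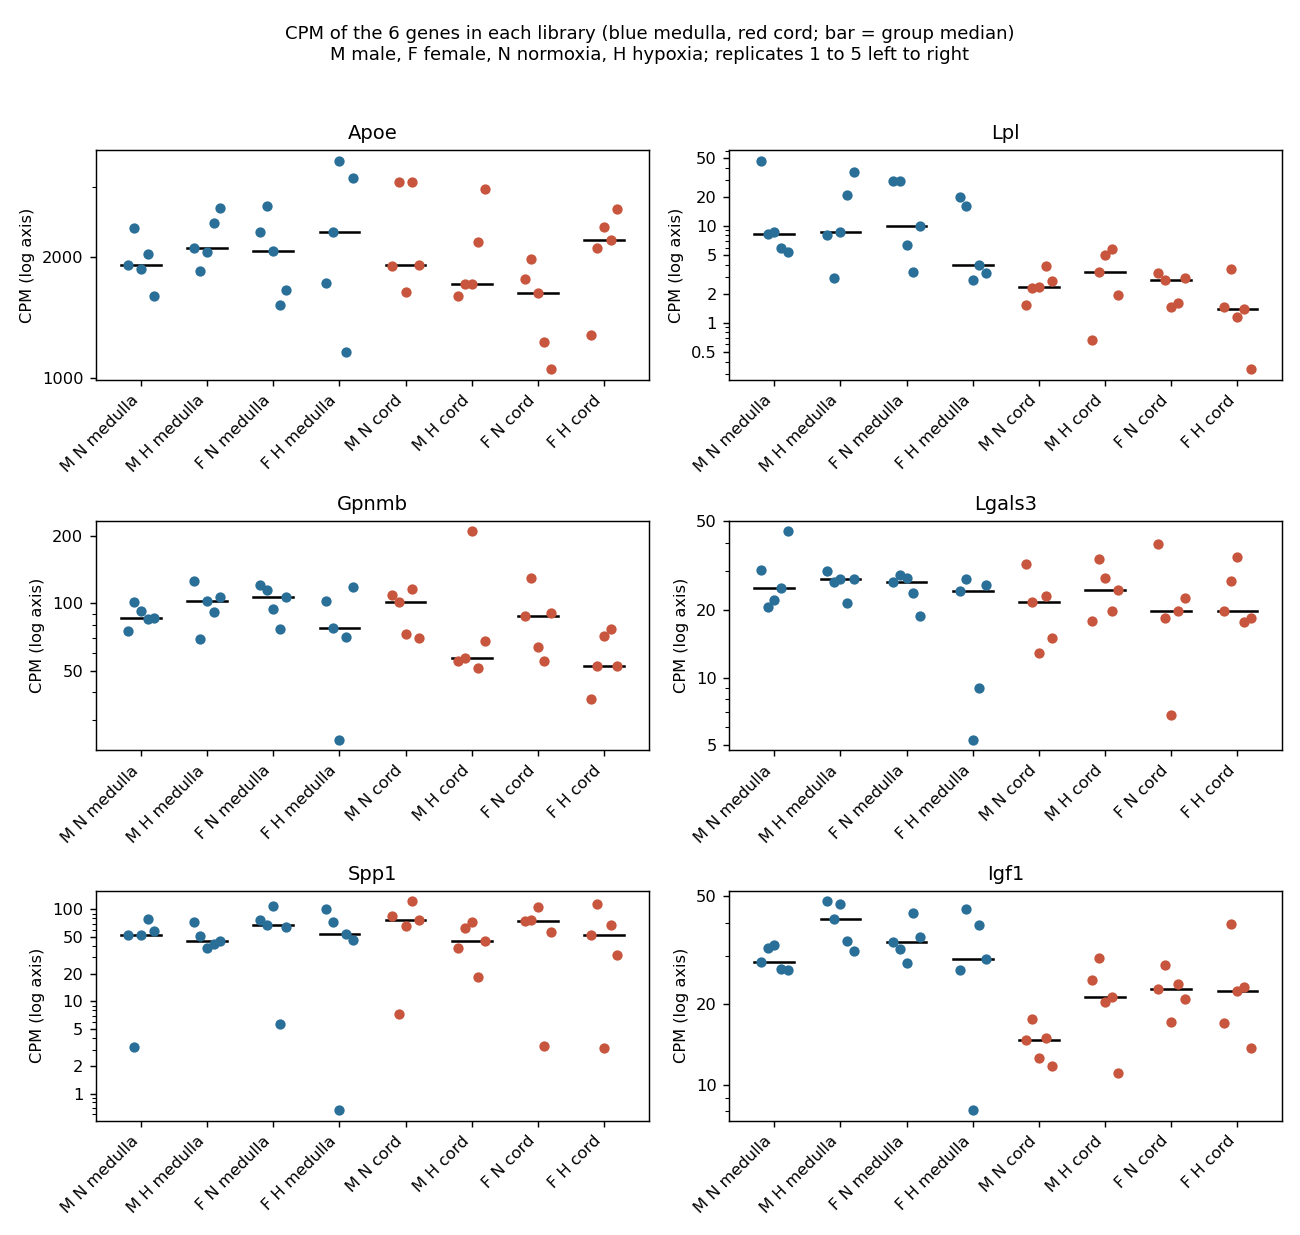
Each panel plots CPM (counts scaled to the library total, log axis) of 1 gene in all 40 libraries, with 5 points per group of sex (M, F), exposure (N, H) and region, and a bar at the group median. Lpl and Igf1 lie lower in the cord (red) than in the medulla (blue), and Spp1 has 6 points under 10 CPM.

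Apoe and Lpl act on lipoproteins. Apolipoprotein E, secreted by astrocytes and microglia, carries cholesterol and phospholipid between cells of the brain, and lipoprotein lipase releases fatty acids from the triglycerides such particles hold. Levels are given as CPM, the counts of a gene divided by the total of its library and scaled by 1e6. Differences were tested with edgeR's quasi-likelihood test, which estimates a log2 fold change with a standard error (SE), and a gene was called when its p-value, adjusted over all genes tested, was under 0.05.

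Apoe was abundant in every library, at 1049.8 to 3487 CPM. In the female cord the normoxia libraries held 1761, 1985, 1628, 1228 and 1049.8 CPM in the order of replicates 1 to 5. The hypoxia libraries of the same region and sex held 1282, 2109, 2373, 2212 and 2647 CPM. The groups overlapped through 1 hypoxia library, while the other 4 lay above all 5 normoxia libraries. The mean was 2125 ± 513 CPM after hypoxia and 1530.4 ± 385 CPM after normoxia (SD, n = 5 each). The fitted log2 fold change was 0.63 (SE 0.23, edgeR adjusted p = 0.0399), larger than these means give. edgeR also scales each library by a TMM factor. In the fit of all 40 libraries these factors were 0.852 to 0.967 for the female hypoxia cord and 1.03 to 1.06 for the female normoxia cord. Apoe was thus 1 of 6 members called in a comparison where 32.8% of 13593 genes were called and 18.2% were called higher, and the other 5 members had adjusted p values of 0.37 to 0.972. Totals moved with exposure here, from 8818241 to 13327037 counts under normoxia and from 13570283 to 20650051 under hypoxia, and their part in the result was not tested. The call was close to the threshold: it was lost without female normoxia cord replicates 3, 4 or 5 (edgeR adjusted p 0.064, 0.0967 and 0.114) and without female hypoxia cord replicates 2, 3, 4 or 5 (0.0749, 0.0845, 0.0643 and 0.0952), with log2 fold changes of 0.515 to 0.774 over all 10 omissions. It was also lost with the replicate number as a block (log2 fold change 0.6, edgeR adjusted p = 0.0508), although the labels do not say what a shared number means between groups.

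RefSeq lists 3 Apoe windows of 250 bases before a start (build GRCr8). The one with a hypoxia response core is shown because Apoe was the member called by exposure (minus strand, chr1:88484521-88484770, read 5' to 3', the match in capitals).
Apoe: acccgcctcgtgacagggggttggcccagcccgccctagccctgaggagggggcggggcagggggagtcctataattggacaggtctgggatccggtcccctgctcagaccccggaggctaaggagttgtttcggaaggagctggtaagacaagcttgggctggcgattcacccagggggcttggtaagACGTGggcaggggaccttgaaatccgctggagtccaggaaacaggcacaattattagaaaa
The capitals mark ACGTG at position -61 from that start, letters found in 16.6% of 33469 windows of this length, so the match is a description only. With 3 windows searched for Apoe, a match in any of them is likelier than that share. Another Apoe window holds CATGTG, the core of the M-box bound by MITF-family factors, at position -40, and the remaining window holds none of the motifs searched. That remaining window overlaps the one shown, and the ACGTG lies after the start it precedes.

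In the male cord Apoe measured 1901, 3088, 1639.8, 3087 and 1909 CPM under normoxia and 1599.7, 1711, 1718, 2181 and 2967 CPM under hypoxia. These ranges overlapped almost wholly, and the log2 fold change was -0.21 (SE 0.23, edgeR adjusted p = 0.857). Whether females and males responded differently in the cord was tested as an interaction, which gave 0.84 on the log2 scale (SE 0.32, edgeR adjusted p = 0.0632) and was not called, while 23.2% of all genes were. DESeq2 put the same interaction at an adjusted p of 0.0351. Within normoxia, Apoe was lower in the cord of females than of males by a log2 fold change of -0.66 (SE 0.23, edgeR adjusted p = 0.0801), and DESeq2 gave an adjusted p of 0.0272. Under hypoxia the difference between the sexes was 0.18 in the cord (edgeR adjusted p = 0.611).

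In the medulla Apoe did not part by exposure. Male normoxia libraries held 1911, 2368, 1865, 2044 and 1599.7 CPM, and male hypoxia libraries 2110.2, 1849, 2065, 2432 and 2662 CPM (log2 fold change 0.21, SE 0.27, edgeR adjusted p = 1.00). Female normoxia libraries held 2318, 2692, 2070.4, 1522 and 1655 CPM. Female hypoxia libraries spread most widely, at 1728, 2309.6, 3487, 1163 and 3157 CPM (log2 fold change 0.27, SE 0.28, edgeR adjusted p = 0.641), and contained both the highest Apoe of the series and the lowest of the medulla. The highest, at 3487 CPM, is the shallowest library of the series. With 1 library left out in turn, the female medulla change ran from 0.006 to 0.457. By group median the order ran from female hypoxia medulla (2309.6 CPM) and female hypoxia cord (2212) through male hypoxia medulla (2110.2), female normoxia medulla (2070.4), male normoxia medulla (1911), male normoxia cord (1909) and male hypoxia cord (1718) to female normoxia cord (1628), and the ranges of all neighbours in that order overlapped. Between regions the log2 fold changes, cord minus medulla, were 0.28 and -0.12 in normoxia and hypoxia males and -0.47 and -0.09 in normoxia and hypoxia females (edgeR adjusted p 0.267 to 0.832). With the animal as a block and without the shallowest medulla library and its animal, a setting added after seeing the data, Apoe was called lower in the cord of normoxia females (-0.449, edgeR adjusted p = 0.0384), and in hypoxia females the difference was of the other sign (0.183, edgeR adjusted p = 0.465).

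Apoe kept to the animal. An animal with high Apoe in the medulla tended to have high Apoe in the cord, with both measured as deviations of log2 CPM from their group means. Over 20 animals Pearson's r was 0.59 (p = 0.0045, 0.027 adjusted over the 6 members) and Spearman's rho 0.79 (p = 3e-05, 0.00018 adjusted), from a two-sided permutation test that shuffled animals within groups. The test treats a male and a female of the same litter as independent, since the labels do not say which animals share a litter. Without the 2 animals farthest from the median of the medulla values r was 0.85. Gpnmb (r = -0.12), Lgals3 (-0.13), Lpl (0.22) and Igf1 (0.33) gave adjusted p values of 0.592 to 0.608 in the same test. With their own 2 farthest animals left out, r was 0.05 for Gpnmb, -0.07 for Lgals3, 0.44 for Lpl and 0.33 for Igf1. Taken over all genes, the 2 regions of an animal also deviated together, at r 0.07 to 0.42 in 20 animals. How many single genes agree between regions as closely as Apoe was not counted. For Igf1, r rose to 0.68 without the animal of the shallowest medulla library (permutation p = 0.0125 over 19 animals, 0.0376 adjusted) and rho to 0.62 (permutation p = 0.0176, 0.0529 adjusted). Apoe then had an r of 0.62 (permutation p = 0.00893, 0.0376 adjusted).

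Lpl was the member that differed most between the regions. In male normoxia animals the medulla held 47.2, 8.36, 8.65, 5.86 and 5.36 CPM and the cord of the same rats 1.54, 2.30, 2.32, 3.89 and 2.70 CPM. Male hypoxia animals had 8.08, 2.89, 8.74, 21.0 and 35.8 CPM in the medulla and 0.661, 3.31, 5.02, 5.83 and 1.96 CPM in the cord. The medulla of female normoxia animals held 29.1, 28.9, 6.31, 3.33 and 10.1 CPM, and their cord 3.30, 2.74, 1.47, 1.59 and 2.93 CPM. In female hypoxia animals the values were 19.8, 15.9, 2.80, 3.99 and 3.27 CPM in the medulla and 1.47, 3.61, 1.16, 1.38 and 0.332 CPM in the cord. The 2 regions did not overlap in normoxia males or normoxia females, and they overlapped in both hypoxia groups. Within animals the cord was lower in 19 of 20, the exception being male hypoxia replicate 2, and the median within-animal difference was -1.88 on the log2 scale. How many of all genes part the regions in this way, or are lower in the cord of as many animals, was not counted. Cord libraries held only 6 to 72 Lpl counts each, against 17 to 972 in the medulla, so the cord values carry more counting error.

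The Lpl difference was called in 3 of the 4 comparisons of region. Its log2 fold change, cord minus medulla, was -2.57 in male normoxia (SE 0.72, edgeR adjusted p = 0.0269), -2.72 in female normoxia (SE 0.73, edgeR adjusted p = 0.0228) and -2.32 in female hypoxia (SE 0.72, edgeR adjusted p = 0.0168). In male hypoxia it was -2.18 (SE 0.71) and just missed the threshold (edgeR adjusted p = 0.0508). In male normoxia the library totals did not overlap between regions, at 17741844 to 24039411 counts in the medulla and 9257290 to 15574494 in the cord. Their part in the male normoxia calls was not tested. All genes were called at 6.55% in male normoxia, 7.76% in male hypoxia, 5.87% in female normoxia and 26.2% in female hypoxia, and the shares called lower in the cord were 4.19%, 5.07%, 3.74% and 13.5%. Among the 6 members, 2 were called in male normoxia, 1 in male hypoxia, 1 in female normoxia and 1 in female hypoxia, each of them lower in the cord. The median log2 fold change of the 6 was -0.15, -0.14, -0.39 and -0.14 in these comparisons, and that of all genes -0.03, -0.01, -0.02 and -0.03.

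The medulla and cord of an animal are a pair, and with the animal as a block the male normoxia difference was -1.94 and lost its call (edgeR adjusted p = 0.054). With that block and without the shallowest medulla library and its animal, a setting added after seeing the data, Lpl was called in all 4 comparisons, with edgeR adjusted p values of up to 0.0403. Single libraries also decided calls. Without male normoxia medulla replicate 1, the library at 47.2 CPM, the male normoxia difference was -1.44 (edgeR adjusted p = 0.272), and it was lost as well without male normoxia cord replicates 1, 2, 3 or 5 (0.0576, 0.0537, 0.0635 and 0.0698). In female normoxia the call went without medulla replicates 1 or 2 (0.0862 and 0.0714) or cord replicates 3 or 4 (0.0646 and 0.0603), and in female hypoxia without medulla replicate 1 (0.0584). limma voom did not call the male normoxia difference (-1.84, adjusted p = 0.102), and edgeR did not call that of female hypoxia when only its 2 groups set the spread (-2.33, adjusted p = 0.119). Male hypoxia gained it without medulla replicates 1, 2 or 3 (0.0454, 0.026 and 0.0442).

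By exposure Lpl was called nowhere. Its log2 fold changes, hypoxia minus normoxia, were 0.04 and -0.81 in the medulla of males and females and 0.40 and -0.41 in their cord, with SEs of 0.52 to 0.79 and edgeR adjusted p values of 0.588 to 1.00. The region difference was not shown to depend on exposure either, since the interaction was 0.38 in males and 0.41 in females (edgeR adjusted p = 1.00 and 0.814). By group median Lpl fell in the order female normoxia medulla (10.1 CPM), male hypoxia medulla (8.74), male normoxia medulla (8.36), female hypoxia medulla (3.99), male hypoxia cord (3.31), female normoxia cord (2.74), male normoxia cord (2.32) and female hypoxia cord (1.38). Neighbours in that order overlapped, so the order within a region is not separated by these libraries.

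**Figure D2:**
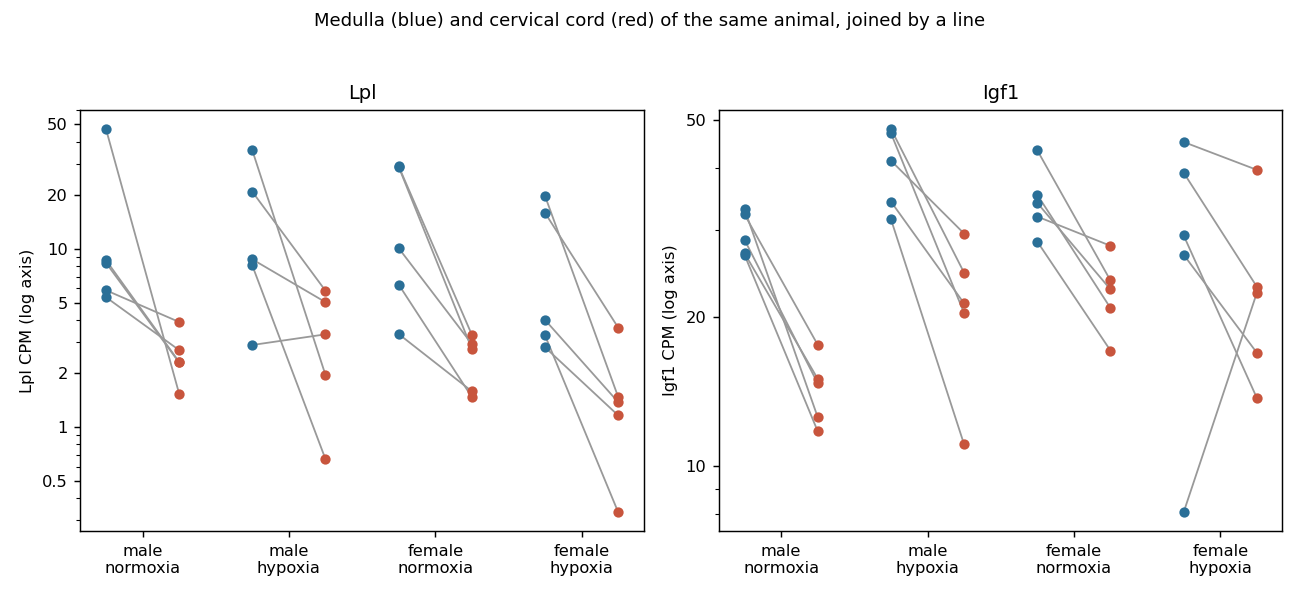
Lines join the medulla (blue) and cervical cord (red) library of each animal for Lpl and Igf1, as CPM on a log axis, by sex and exposure. For each gene 19 of the 20 lines fall from medulla to cord.

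Igf1 encodes insulin-like growth factor 1, a secreted factor that microglia supply to neurons and to cells of the oligodendrocyte lineage. It is shown here with the 250 bases before its start because it is the other member with a called region difference. The sequence is from RefSeq (build GRCr8, plus strand, chr7:24172282-24172531), read 5' to 3', with the 1 match to the motifs searched in capitals.
Igf1: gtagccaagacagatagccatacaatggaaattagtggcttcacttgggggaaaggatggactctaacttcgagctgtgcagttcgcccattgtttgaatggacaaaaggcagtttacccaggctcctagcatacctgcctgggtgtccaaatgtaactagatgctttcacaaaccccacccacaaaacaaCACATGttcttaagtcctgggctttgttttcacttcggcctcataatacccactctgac
The capitals are CATGTG on the reverse strand, the core of the M-box bound by MITF-family factors, which begins at position -59 from the start. CATGTG stands in 12.1% of 33469 promoter windows of the same length, so a match is common and is given as a description only.

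Igf1 was lower in the cord in 19 of 20 animals, with a median within-animal difference of -0.80 on the log2 scale. Male normoxia animals had 28.6, 32.2, 32.98, 26.9 and 26.7 CPM in the medulla and 14.7, 17.6, 12.6, 15.0 and 11.8 CPM in the cord. Male hypoxia animals had 47.9, 41.3, 47.0, 34.2 and 31.5 CPM in the medulla and 24.6, 29.5, 20.4, 21.3 and 11.1 CPM in the cord. In both male groups every medulla library lay above every cord library. As for Lpl, the share of all genes that part in this way, or fall in 19 of 20 animals, was not counted. The log2 fold change, cord minus medulla, was -1.01 in male normoxia (SE 0.27, edgeR adjusted p = 0.0204) and -0.90 in male hypoxia (SE 0.27, edgeR adjusted p = 0.0328). The male normoxia library totals do not overlap between the regions, as given for Lpl, and their part here was not tested.

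Female normoxia animals had 33.97, 31.9, 28.4, 43.4 and 35.3 CPM of Igf1 in the medulla and 22.7, 27.8, 17.1, 23.7 and 20.9 CPM in the cord. These groups did not overlap either, though the change of -0.66 was not called (SE 0.27, edgeR adjusted p = 0.123). Female hypoxia animals had 26.7, 45.1, 8.08, 39.1 and 29.2 CPM in the medulla and 16.9, 39.6, 22.4, 23.03 and 13.7 CPM in the cord. The library at 8.08 CPM is the shallowest of the series, with 49 Igf1 counts, and its animal is the exception among the 20. The log2 fold change in female hypoxia was -0.19 (SE 0.27, edgeR adjusted p = 0.646), and -0.40 without that library (edgeR adjusted p = 0.22). With the animal as a block neither was called (edgeR adjusted p = 0.059 in normoxia and 0.594 in hypoxia females). limma voom called both (-0.559, adjusted p = 0.0499, and -0.713, adjusted p = 0.035), and edgeR called normoxia females when only the 2 groups set the spread (-0.652, adjusted p = 0.0199). With the block and without the animal of the shallowest library, a setting added after seeing the data, both were called (-0.645, edgeR adjusted p = 0.00954, and -0.506, 0.0367).

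The male calls of Igf1 also lay near the threshold. Male normoxia lost the call without medulla replicate 1 (edgeR adjusted p = 0.0532) or cord replicates 3 or 5 (0.0548 and 0.0684). Male hypoxia lost it without medulla replicates 1, 3 or 5 (0.0643, 0.0549 and 0.0569) or cord replicates 3, 4 or 5 (0.0711, 0.0675 and 0.12). The 8 alternatives other than these omissions, the animal block among them, kept both male calls. Their adjusted p values from edgeR, DESeq2 or limma voom reached 0.024 in normoxia and 0.0402 in hypoxia. The 8 include the setting added after seeing the data. No difference in the Igf1 region effect between exposures was called, at 0.11 in males and 0.48 in females (edgeR adjusted p = 1.00 and 0.386).

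Exposure left Igf1 uncalled in every group. After hypoxia 4 of 5 male libraries lay above all normoxia libraries in the medulla and 4 of 5 in the cord, and the log2 fold changes were 0.47 and 0.56 (edgeR adjusted p = 1.00 and 0.764). Those of females were -0.25 in the medulla and 0.22 in the cord (edgeR adjusted p = 0.626 and 0.551). In the normoxia cord Igf1 was 0.60 higher in females than in males on the log2 scale (SE 0.27, edgeR adjusted p = 0.179), with 4 of 5 female libraries above all male ones. This difference was called when only these 2 groups set the spread (edgeR adjusted p = 0.0382) and with the replicate number as a block (0.61, edgeR adjusted p = 0.0482). Whether a number marks littermates is not in the labels, and same-numbered male and female cord libraries of 1 exposure deviated together in 10 of 10 pairs (r 0.0592 to 0.351). The group medians ran from 41.3 CPM in the male hypoxia medulla over 33.97 in the female normoxia, 29.2 in the female hypoxia and 28.6 in the male normoxia medulla to 22.7 in the female normoxia, 22.4 in the female hypoxia, 21.3 in the male hypoxia and 14.7 in the male normoxia cord. Ranges of neighbours in this order overlapped.

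Spp1 encodes osteopontin, a secreted phosphoprotein that binds integrins and CD44. Its 250 bases before the start are shown because the gene was nearly silent in some animals (RefSeq, build GRCr8, minus strand, chr14:5619805-5620054, read 5' to 3', the 1 motif match in capitals).
Spp1: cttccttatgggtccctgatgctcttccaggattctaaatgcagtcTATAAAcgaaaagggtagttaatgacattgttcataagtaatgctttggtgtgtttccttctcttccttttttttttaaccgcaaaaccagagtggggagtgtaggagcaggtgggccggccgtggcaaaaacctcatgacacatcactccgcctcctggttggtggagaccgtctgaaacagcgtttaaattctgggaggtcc
The capitals mark TATAAA, the TATA box letters, at position -204 from the start, a motif present in 12.9% of windows.

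In 3 rats Spp1 was nearly absent from both regions. Male normoxia replicate 2 had 3.16 CPM in the medulla and 7.31 CPM in the cord, female normoxia replicate 4 had 5.69 and 3.29 CPM, and female hypoxia replicate 3 had 0.66 and 3.10 CPM. These 6 libraries, with a median of 3.23 CPM, were the lowest of the series. The next library, male hypoxia cord replicate 4, stood at 18.5 CPM, and the 34 others reached 122 CPM with a median of 64.9 CPM. The low libraries held 4 to 111 Spp1 counts. Of the low animals, 1 was male and 2 were female, and 2 were normoxia and 1 was hypoxia offspring. Neither sex nor exposure sets the 3 apart.

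The other libraries of the affected groups lay between 31.5 and 122 CPM. Male normoxia animals other than replicate 2 had 51.9, 52.1, 79.4 and 58.3 CPM in the medulla and 84.1, 65.8, 122 and 77.4 CPM in the cord. Female normoxia animals other than replicate 4 had 77.0, 66.8, 109.5 and 64.1 CPM in the medulla and 74.4, 76.8, 106 and 56.8 CPM in the cord. Female hypoxia animals other than replicate 3 had 99.9, 72.9, 54.5 and 46.5 CPM in the medulla and 52.1, 115, 67.9 and 31.5 CPM in the cord. The male hypoxia group, which had no such animal, held 72.5, 51.1, 38.4, 41.5 and 45.5 CPM in the medulla and 37.6, 63.0, 72.5, 18.5 and 45.4 CPM in the cord.

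The other members did not split in this way. In the 6 libraries low in Spp1, Apoe was the highest of its group in 3 and the lowest in 1, and Gpnmb the highest in 1 and the lowest in 3. Lpl was the lowest of its group in 2, Lgals3 the lowest in 2 and the highest in 1, and Igf1 the highest in 2 and the lowest in 1. Of 14832 IDs tested across all libraries, 0 others had the same 6 libraries as their lowest, and 0 others had the same 5 when the shallowest was set aside. These libraries were picked by Spp1 itself, and an exact match of the whole set is rare for any ID. The count therefore does not show whether other genes are low in the same 3 animals. Over all 20 animals r between the regions was 0.92 and rho 0.74. Because the animals fall into separate clusters, the relation was also computed over the 17 animals that were not low. There r was 0.31 (permutation p = 0.326, 0.592 adjusted over the members) and rho 0.22 (permutation p = 0.473). That adjustment joins this test of 17 animals with the tests of the other members over 20 animals. The agreement of the regions in Spp1 thus rests on the low animals.

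Spp1 was called in no comparison. By exposure its log2 fold changes were 0.05 and -0.29 in the male and female medulla and -0.60 and -0.05 in the male and female cord, with SEs of 0.71 to 0.75 (edgeR adjusted p 0.865 to 1.00). Between regions they were 0.56, -0.06, -0.07 and 0.18 in male normoxia, male hypoxia, female normoxia and female hypoxia (edgeR adjusted p 0.737 to 0.973). In male normoxia all 5 animals had more Spp1 in the cord than in the medulla, while over all animals the cord was lower in 9 of 20. Group medians ran from 77.4 CPM in the male normoxia cord and 74.4 in the female normoxia cord through 66.8 in the female normoxia medulla, 54.5 in the female hypoxia medulla, 52.1 in the female hypoxia cord and 52.1 in the male normoxia medulla to 45.5 in the male hypoxia medulla and 45.4 in the male hypoxia cord, with overlapping ranges throughout.

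**Figure D3:**
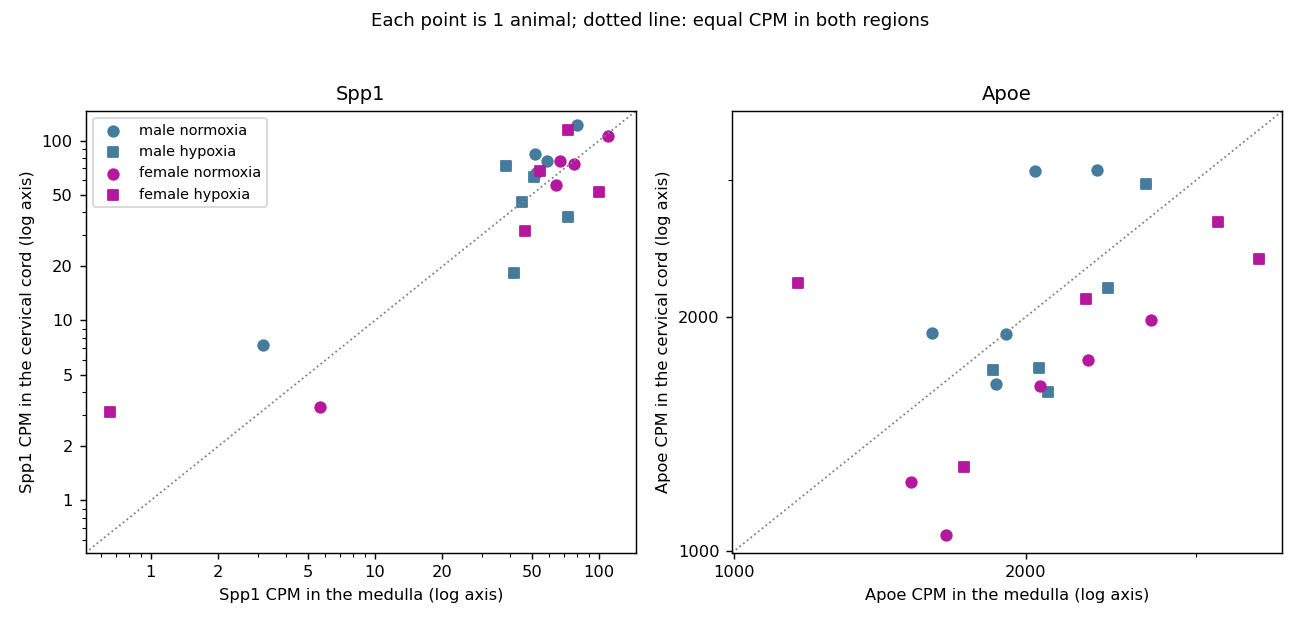
Each point is 1 animal, placed by its CPM in the medulla and in the cervical cord on log axes, with the dotted line at equal values. The Spp1 panel has 3 animals under 10 CPM in both regions, apart from the other 17, while Apoe forms a continuous band.

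Gpnmb and Lgals3 mark phagocytic cells with loaded lysosomes. Gpnmb is a transmembrane glycoprotein of endolysosomes and the cell surface, and Lgals3, or galectin-3, is a sugar-binding lectin that gathers on damaged lysosomes and is also secreted. The window before the Gpnmb start (RefSeq, build GRCr8, plus strand, chr4:79340878-79341127, 5' to 3') is shown because it holds matches to 2 of the motifs searched, in capitals.
Gpnmb: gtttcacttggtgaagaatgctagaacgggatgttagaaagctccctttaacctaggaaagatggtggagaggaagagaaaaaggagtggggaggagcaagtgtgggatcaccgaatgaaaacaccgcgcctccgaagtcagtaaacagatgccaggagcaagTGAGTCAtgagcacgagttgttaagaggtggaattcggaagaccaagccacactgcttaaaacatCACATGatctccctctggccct
The first capitals are TGANTCA, the AP-1 motif, at position -87 from the start (in 6.34% of windows), and the second are CATGTG on the reverse strand, at position -22. CACGTG, GAGGAAGT (the PU.1 motif) and ACGTG (a hypoxia response core), searched on both strands, were absent from the Spp1, Gpnmb and Igf1 windows, and CACGTG and ACGTG overlap in their letters.

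Gpnmb ranged from 24.6 to 210.5 CPM. In the female cord the normoxia libraries held 87.7, 130, 63.8, 55.1 and 90.6 CPM and the hypoxia libraries 37.2, 52.5, 71.8, 76.5 and 52.6 CPM. The groups overlapped, with 3 of 5 hypoxia libraries below all normoxia ones, and the log2 fold change of -0.40 was not called (SE 0.33, edgeR adjusted p = 0.37). In the female medulla the normoxia libraries held 121, 115, 94.8, 77.1 and 107 CPM and the hypoxia libraries 103, 77.7, 24.6, 70.5 and 118 CPM (log2 fold change -0.41, edgeR adjusted p = 0.42). The lowest of these, at 24.6 CPM, is the shallowest library.

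Male Gpnmb values lay at 75.1, 102, 92.2, 85.4 and 86.3 CPM in the normoxia medulla and at 126, 69.5, 103, 91.7 and 106 CPM in the hypoxia medulla (log2 fold change 0.19, edgeR adjusted p = 1.00). In the male cord normoxia libraries had 109, 101.4, 72.9, 116 and 69.9 CPM. The hypoxia libraries had 55.5, 57.2, 210.5, 51.3 and 67.7 CPM, so that 4 of 5 lay below every normoxia library and 1 above them all. The log2 fold change of -0.10 (SE 0.33, edgeR adjusted p = 0.962) moved to -0.70 without that 1 library, male hypoxia cord replicate 3 (edgeR adjusted p = 0.955). Between regions Gpnmb differed by 0.12 to -0.31 on the log2 scale (edgeR adjusted p 0.512 to 0.881). By group median it fell in the order female normoxia medulla, male hypoxia medulla, male normoxia cord, female normoxia cord, male normoxia medulla, female hypoxia medulla, male hypoxia cord and female hypoxia cord, from 107 to 52.6 CPM, and neighbours overlapped.

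Lgals3 lay between 5.28 and 45.2 CPM. Medulla medians were 25.1 CPM in male normoxia, 27.6 in male hypoxia, 26.9 in female normoxia and 24.4 in female hypoxia, and cord medians 21.9, 24.7, 19.96 and 19.9 CPM in the same order. Groups next to each other by median overlapped. Its lowest values were in female hypoxia medulla replicate 3 (5.28 CPM, 32 counts), female normoxia cord replicate 3 (6.80 CPM) and female hypoxia medulla replicate 4 (9.01 CPM). The log2 fold changes by exposure were -0.09 and -0.46 in the male and female medulla and 0.22 and 0.29 in the male and female cord (edgeR adjusted p 0.479 to 1.00). Between regions they were -0.43, -0.10, -0.26 and 0.49 in male normoxia, male hypoxia, female normoxia and female hypoxia (edgeR adjusted p 0.299 to 0.903). None of these was called.

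**Figure D4:**
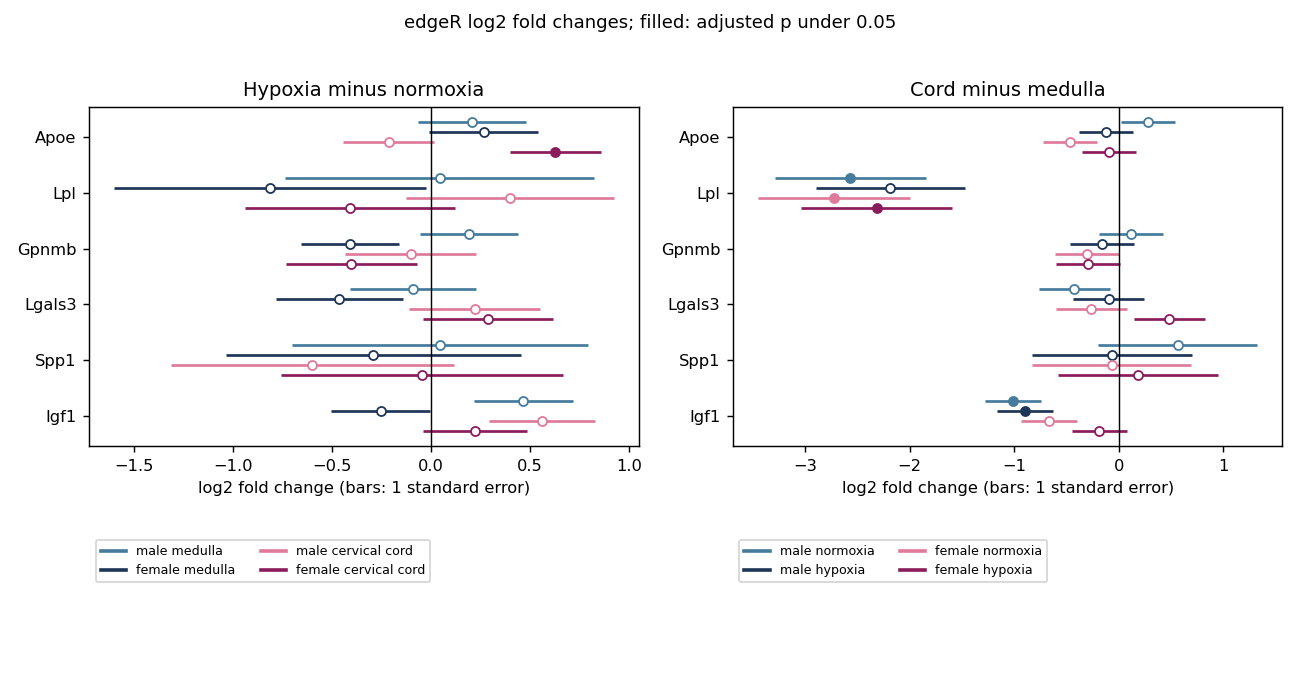
Points are edgeR log2 fold changes of the 6 genes with bars of 1 standard error, for hypoxia minus normoxia (left) and cord minus medulla (right), and filled points have an adjusted p under 0.05. Filled points are Apoe in the female cord on the left, and on the right Lpl in 3 and Igf1 in 2 of the 4 comparisons.

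Over the 4 comparisons by exposure the 6 members were thus called once. In the male medulla, the female medulla and the male cord 0 members were called with edgeR, DESeq2 or limma voom, and 0, 0 and 1 had an unadjusted p under 0.05 with edgeR. Of all genes edgeR called 0% in each of these 3 comparisons, while DESeq2 called 0, 60 and 1 genes and limma voom 0, 1 and 0. The members' median log2 fold change was 0.12 in the male medulla, -0.35 in the female medulla, 0.06 in the male cord and 0.09 in the female cord, beside 0.001, -0.04, 0.003 and -0.007 for all genes. Between the sexes 0 members were called in the medulla (0.0707% of genes under normoxia and 0.0777% under hypoxia) and 0 in the cord (6.56% and 19.6%), with 0, 0, 2 and 0 members at an unadjusted p under 0.05. DESeq2 called 1 member, Apoe, between the sexes in the normoxia cord, and limma voom 0. The interactions of sex with exposure in the medulla and of region with exposure in males called 0% of genes, and that of region with exposure in females 20.8%, with 0 members called and 0 at an unadjusted p under 0.05 in each.

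The 6 genes did not move as 1 block. Over all 40 libraries the 15 pairs of members had Pearson correlations of log2 CPM from -0.23 (Apoe and Spp1) to 0.51 (Lpl and Igf1), a description of libraries that share animals, regions and depth. Without the shallowest library the range was -0.06 to 0.53, with Lpl and Igf1 again the highest. Among the other 14831 IDs tested, ENSRNOG00000002832 was most like Lpl (r = 0.91) and ENSRNOG00000015304 most like Apoe (r = 0.85), and 278 IDs had r over 0.8 with Lpl against 7 with Apoe and 0 with Spp1 or Gpnmb. The files pair no names with these IDs.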

How the data were processed

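RNA was sequenced from CD11b-selected microglia of the medulla and cervical cord in 40 libraries. The authors deposited raw read counts per Ensembl gene ID, unnormalized, for 32883 IDs. The submitters' processing notes name TopHat2 2.1, HTSeq and edgeR with build rn6, without role or order. Annotation release, strand setting and filters: not given in the sources used here. How reads shared by overlapping genes were counted is therefore not known here.

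Each column was matched to its library by label, and 0 columns were left over. CPM are counts divided by the library total and multiplied by 1e6. Counts were tested with edgeR 4.0.16 in R 4.3.3 (quasi-likelihood F test, TMM factors, filterByExpr by group, no block), with Benjamini-Hochberg adjustment over all genes tested. Exposure, sex and their interaction used the 20 libraries of a region (14151 genes in the medulla, 13593 in the cord), and region all 40 (14832 genes). SEs are those implied by the F statistic. Alternatives were RLE factors, no filter, DESeq2 1.42.0, limma 3.58.1 voom with quality weights, a replicate block, only the groups compared, the shallowest medulla library left out, and each library left out in turn. The code was tested on simulated data.

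The members and lists were chosen with earlier results of these data known. All 6 members are named in every comparison, and per member the most alike ID over 40 libraries was found, 2 of which are printed. Gene lists of lipid handling, Igf1 signalling and cell type markers were set up, but 0 of 47357 reference rows carried an Ensembl ID, so they were not analysed here. Promoter windows were found for Apoe, Spp1, Gpnmb and Igf1. They are of build GRCr8, not rn6, and were used for sequence only.

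Medulla and cord libraries with the same number come from 1 animal by the labels and the series design. Their deviations from group means correlated at 0.07 to 0.42 in 20 pairs. The labels do not say whether numbers also mark litters across groups. Replicates were compared by chi-square: no pair was the same library, with a minimum of 10.1 per degree of freedom.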

Additional observations from a re-analysis of the deposited data

Results flagged for a closer look

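In 48 sets of 5 libraries (6 genes in 8 groups), 2 held a library far from the other 4, and chance alone gives about 1 in 20. Gpnmb stood at 210.5 CPM in male hypoxia cord replicate 3, where the nearest library of the group had 67.7 CPM, and the medulla of the same animal had 103 CPM, within its group. Lpl stood at 47.2 CPM in male normoxia medulla replicate 1, where the nearest library had 8.65 CPM, and the cord of that animal had 1.54 CPM, the lowest of its group. The causes were not tested.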

How the results depend on the processing

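Of 96 pairs of member and comparison, 57 were followed over all alternatives except the omission of each library in turn. They were all 6 members by exposure and by region, and some results of Apoe, Igf1 and Lpl by sex or interaction. Only 6 of the 57 were called in the main fit. Over the alternatives 374 outcomes kept direction and call, most of them results that stayed uncalled. Another 15 gained a call, 4 lost one and 18 changed sign. The settings without the shallowest medulla library are included in these counts. Members called moved as follows. DESeq2 called 1 by sex and exposure in the cord, 1 by sex in the normoxia cord and 2 by region in male hypoxia, and RLE factors 2 in male hypoxia. Of all genes DESeq2 called 3606, 1577 and 1635 in these 3 comparisons. limma voom called 1, 2 and 2 by region in male normoxia, female normoxia and female hypoxia, where it called 2008, 2659 and 1712 of all genes. Without the shallowest medulla library 2 were called in male hypoxia, beside 1849 of all genes. With only the groups compared 1 was called by sex in the normoxia cord, 2 by region in female normoxia and 0 in female hypoxia. By region 1944 and 132 of all genes were then called in female normoxia and female hypoxia. The replicate block left 0 by exposure in the female cord (Apoe 0.6, adjusted p = 0.0508), 1 by sex in the normoxia cord (Igf1 0.61, 0.0482) and 1 by region in male normoxia. Across groups of a region the labels give only a shared number, and deviations of same-numbered libraries correlated at -0.45 to 0.72 (median 0.03). Of these, males and females of 1 exposure gave 0.0592 to 0.351 in the cord (10 of 10 pairs above 0, 7 over 0.1) and -0.41 to 0.716 in the medulla (5 of 10 above 0). With the block and without the shallowest library and its animal, chosen after seeing the data, 2, 3 and 2 were called by region in male hypoxia, female normoxia and female hypoxia, and 1 for region by exposure in females (Apoe 0.63, adjusted p = 0.0429). That setting called 2187 and 2817 of all genes by region in male hypoxia and female normoxia. Where no count of all genes stands beside a setting, only the ranges below apply. Leaving out each library gave 0 to 1 called by exposure in the female cord, 0 to 1 by sex and exposure in the cord, and 0 to 2, 0 to 2, 0 to 1 and 0 to 1 by region in male normoxia, male hypoxia, female normoxia and female hypoxia. With limma voom, log2 fold changes of the other sign were Lpl -0.016 and Lgals3 0.046 by exposure in the male medulla, Apoe -0.05 and Igf1 0.057 by exposure in the female medulla, Spp1 0.105 and Igf1 -0.134 by exposure in the female cord, Apoe 0.165 and Spp1 -0.744 between regions in female hypoxia, Igf1 -0.154 and Lpl -0.718 for region by exposure in female and Igf1 -0.029 for region by exposure in male. Without the shallowest medulla library, log2 fold changes of the other sign were Spp1 0.038 by exposure in the female medulla and Apoe 0.177 and Spp1 -0.139 between regions in female hypoxia. With the replicate block, log2 fold changes of the other sign were Apoe 0.02 between regions in female hypoxia and Lpl -0.002 for region by exposure in male. With the block and without that library and its animal, log2 fold changes of the other sign were Apoe 0.183 between regions in female hypoxia and Lpl -0.038 for region by exposure in female. Leaving out each library in turn changed the sign of log2 fold changes that were not called. By exposure in the male medulla the ranges were Spp1 -0.272 to 0.282, Lpl -0.577 to 1.167 and Lgals3 -0.199 to 0.134. By exposure in the female medulla the range was Spp1 -0.551 to 0.038. By exposure in the male cord the range was Gpnmb -0.7 to 0.05. By exposure in the female cord the ranges were Spp1 -0.605 to 0.263 and Igf1 -0.115 to 0.368. Between regions in male hypoxia the range was Spp1 -0.27 to 0.138. Between regions in female normoxia the range was Spp1 -0.363 to 0.237. Between regions in female hypoxia the ranges were Apoe -0.319 to 0.177, Spp1 -0.368 to 0.491 and Igf1 -0.519 to 0.025. For region by exposure in male the ranges were Igf1 -0.029 to 0.271 and Lpl -0.743 to 1.007. For region by exposure in female the range was Lpl -0.22 to 0.822. The causes were not tested. Counts of all genes called ranged over all alternatives from 291 to 2248 (against 972 as reported), 386 to 2187 (against 1151 as reported), 291 to 2817 (against 870 as reported) and 132 to 4853 (against 3886 as reported) by region in that order of groups, and from 3639 to 4834 (against 4458 as reported) by exposure in the female cord, 0 to 60 (against 0 as reported) in the female medulla, 136 to 1577 (against 892 as reported) by sex in the normoxia cord, 1477 to 3184 (against 2662 as reported) by sex in the hypoxia cord, where 1477 and 1754 were called without female hypoxia cord replicates 2 and 3, 2569 to 3606 (against 3155 as reported) for sex by exposure in the cord, 10 to 26 (against 10 as reported) and 9 to 41 (against 11 as reported) by sex in the medulla, and 1083 to 4082 (against 3078 as reported) for region by exposure in females. Low counts limit Lpl in the cord and Spp1 in the 3 low animals.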
